A study of Mus musculus with 2 samples.

Results

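The regions described here are stretches of accessible chromatin that lie away from promoters and close to one another, in chains stitched together in the way enhancer domains are commonly drawn. They were chosen by position from a list of regions shared by 2 ATAC-seq libraries. A region was distal when its summit lay over 1 kb from every protein-coding transcription start site (TSS). Neighbouring distal regions were chained where their edges were at most 12500 bp apart, and regions in chains of 4 or more were kept. This gave 1218 member regions in 273 chains, which was 6.00% of 20306 distal regions and 3.86% of 31532 regions in all. The members were therefore picked from the same peak calls that are described, and their closeness is not a finding.

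ATAC-seq marks open DNA by letting a transposase insert sequencing adapters into it. The cells were haematopoietic stem cells, labelled as primary cells of adult C57BL/6J mice of 5 to 6 weeks, and the 2 libraries formed 1 group with no treatment. The libraries are labelled biological replicates 1 and 2, but both carry one donor identifier, so differences between them may be technical in part. Sex was not collected, and the labels name neither sort markers nor, for replicate 1, the number of cells used, which was 50000 in replicate 2. The files hold peak positions and signals rather than reads, so the depth behind a value is unknown.

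Haematopoietic stem cells renew themselves and give rise to every blood lineage, and factors of the ETS, GATA, RUNX and TAL1 families act together at their distal enhancers. Enhancers are short stretches of DNA bound by such factors, and they can act on genes at a distance. Several genes that define a cell type are surrounded by many enhancers within a small interval. Such clusters have been called super-enhancers when they also carry a high load of an active mark. No histone mark, factor binding or expression was measured here, so the chains are named by position only.

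The sequences below show what the members look like at base level. They are windows of 50 bp on each side of a summit, on the + strand of GRCm38.p6 (mm10), from the highest summit of each of the 3 chains of highest summed signal and from chains near the stem cell factor genes Tal1, Gata2 and Fli1. Every summit of the Tal1 and Fli1 chains is shown, because these were the only stem cell factor genes within 50 kb of a chain. The widest member upstream of Gata2 is also shown, and the summits of the Tal1 chain, that member and those of the Fli1 chain beyond its highest were picked after their values were seen. Capitals mark matches to any of the 14 short motifs described further on. Summits are numbered along the chromosome.
Mreg chain, summit 5, chr1:72243908-72244008: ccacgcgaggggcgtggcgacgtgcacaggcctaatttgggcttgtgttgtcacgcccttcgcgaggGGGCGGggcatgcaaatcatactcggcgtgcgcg
Ddit4 chain, summit 7, chr10:59932683-59932783: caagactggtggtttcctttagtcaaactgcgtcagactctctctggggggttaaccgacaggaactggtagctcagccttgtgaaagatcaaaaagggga
Stk10 chain, summit 7, chr11:32580653-32580753: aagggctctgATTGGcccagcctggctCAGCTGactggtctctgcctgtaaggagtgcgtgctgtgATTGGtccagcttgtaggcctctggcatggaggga
Tal1 chain, summit 1, chr4:115062726-115062826: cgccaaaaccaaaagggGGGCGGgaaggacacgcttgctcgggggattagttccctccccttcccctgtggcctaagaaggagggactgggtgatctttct
Tal1 chain, summit 2, chr4:115075669-115075769: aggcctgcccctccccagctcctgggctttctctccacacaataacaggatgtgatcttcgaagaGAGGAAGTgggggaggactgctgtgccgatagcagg
Tal1 chain, summit 3, chr4:115085716-115085816: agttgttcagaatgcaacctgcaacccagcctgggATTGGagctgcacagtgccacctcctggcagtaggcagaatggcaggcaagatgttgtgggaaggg
Tal1 chain, summit 4, chr4:115095862-115095962: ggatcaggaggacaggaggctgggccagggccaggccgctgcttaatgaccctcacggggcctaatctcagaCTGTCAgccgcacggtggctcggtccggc
Tal1 chain, summit 5, chr4:115101781-115101881: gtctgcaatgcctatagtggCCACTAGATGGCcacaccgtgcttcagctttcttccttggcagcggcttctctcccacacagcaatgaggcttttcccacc
Gata2 chain, summit 3, chr6:88117008-88117108: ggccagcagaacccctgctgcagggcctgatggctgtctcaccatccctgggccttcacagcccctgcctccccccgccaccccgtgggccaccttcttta
Fli1 chain, summit 1, chr9:32500220-32500320: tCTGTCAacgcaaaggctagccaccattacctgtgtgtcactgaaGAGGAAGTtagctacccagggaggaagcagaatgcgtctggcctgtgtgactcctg
Fli1 chain, summit 2, chr9:32508819-32508919: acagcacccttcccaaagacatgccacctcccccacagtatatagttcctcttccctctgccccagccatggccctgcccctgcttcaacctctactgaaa
Fli1 chain, summit 3, chr9:32509931-32510031: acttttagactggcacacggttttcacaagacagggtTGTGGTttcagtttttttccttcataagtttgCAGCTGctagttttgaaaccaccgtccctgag
Fli1 chain, summit 4, chr9:32516790-32516890: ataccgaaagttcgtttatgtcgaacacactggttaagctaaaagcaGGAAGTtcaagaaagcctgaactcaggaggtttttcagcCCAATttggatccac
The Stk10 window holds 2 CCAAT-box matches on the reverse strand around 1 E-box. Summit 2 of the Tal1 chain and summit 1 of the Fli1 chain each carry GAGGAAGT, the PU.1-type ETS site. Summit 5 of the Tal1 chain carries a CTCF match. A match is a description of the letters and not a measured binding site.

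One chain stood apart from the rest. The shortest chain, at chr4:80002530-80005239, held 5 regions in 2.71 kb, and regions covered 76.4% of it. Its highest summit lay 831 kb from the nearest protein-coding TSS, that of Tyrp1. All 5 of its regions matched mitochondrial DNA in a blastn search, at identities from 92.9% to 96.5% over 221 to 530 bp. No other member matched, and 21 of 20306 distal regions did. Replicate 2 had the higher signal at this chain's regions 1 to 3, with 8.21 against 10.9, 3.69 against 4.65 and 8.98 against 9.53 in replicates 1 and 2, and the lower signal at region 5, with 4.58 against 3.65. Region 4 was absent from replicate 1's pseudoreplicated list and had 4.52 against 5.32 in the thresholded lists. The part of the mitochondrial match in these values was not tested. Without this chain there were 272 chains and 1213 members, and the shares of members found in each replicate were 80.7% and 58.0%.

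Chains were spread over all chromosomes but Y, and most held the smallest number of regions the rule allows. There were 190 chains of 4 regions, 56 of 5, 16 of 6, 8 of 7, 1 of 8 and 2 of 9, beside 619 chains of 3 regions just under the rule, 2455 of 2 and 12321 isolated distal regions. Gaps between neighbours within chains had a median of 5799 bp. The longest gaps inside the rule were 12495 and 12473 bp, and the shortest just beyond it were 12600 and 12647 bp. Of 945 gaps inside chains, 52 were within 1 kb of the limit, and 13 gaps next to chains were up to 1 kb beyond it. Chromosome 7 held 28 chains, or 10.3%, against 6.09% of distal regions, and chromosome 9 held 22, or 8.06%, against 5.14%. Chromosome 10 held 8, or 2.93%, against 5.73%. These shares were not tested.

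A chain was typically a long interval with few and short accessible stretches. Chain length, from the first base of the first region to the last base of the last, had a median of 22.2 kb and ranged from 2.71 to 54.2 kb. Regions covered a median of 10.5% of a chain, and 672 of 6241 kb over all chains. The signal of a region is the authors' value for its highest peak, with no stated scale. The signal summed over a chain had a median of 30.8 and ranged from 15.9 to 68.9. Longer chains and chains of more regions had larger sums, with Spearman coefficients of 0.583 and 0.597 over 273 chains, as a sum over more regions must.

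**Figure D1:**
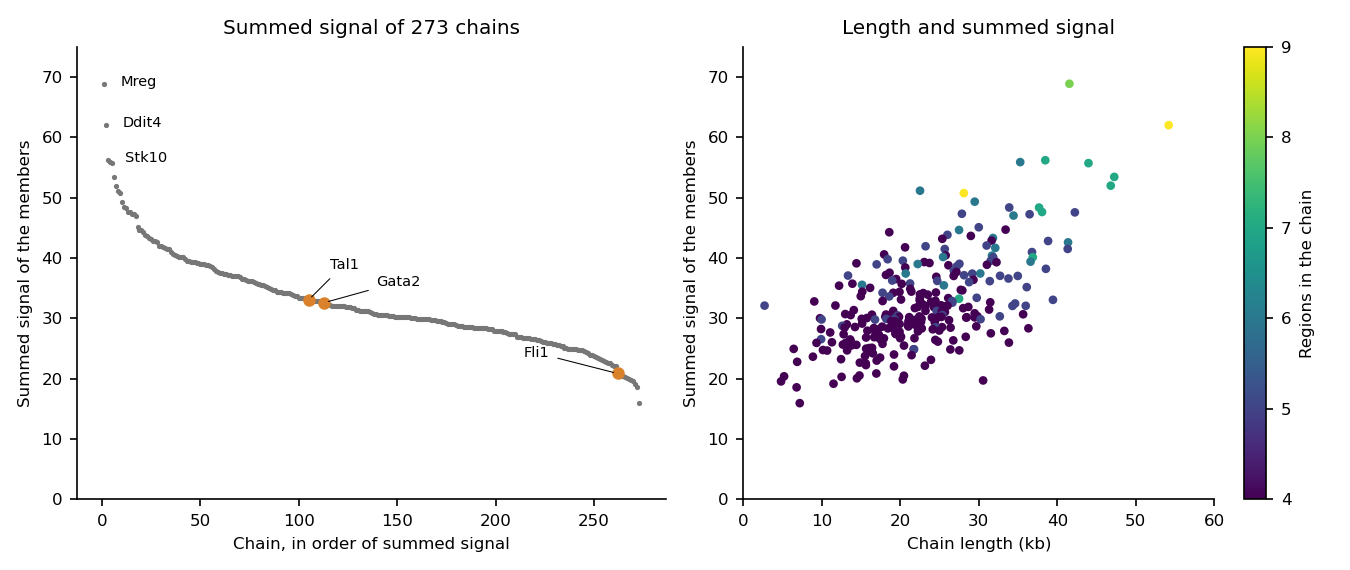
Left, the summed signal of each of 273 chains (points, in the unit of the deposited signal) in order, with the 3 chains of highest sum named by nearest gene and 3 chains near stem cell factor genes in orange. Right, chain length in kb against summed signal, coloured by the number of regions. The chains near Tal1 and Gata2 lie at 33.1 and 32.6, near the median of 30.8, and the chain near Fli1 lies at 20.8, near the bottom.

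The chain of highest summed signal spanned 41.5 kb near Mreg, which encodes melanoregulin, a protein of vesicle and melanosome transport, and which had no region at its promoter. It held 8 intergenic regions at chr1:72214464-72256008 and overlapped the noncoding gene D230017M19Rik. Its sum was 68.9 in the shared list, 70.8 in replicate 1 and 56.9 in replicate 2. Along the chain the signals in replicate 1 were 8.53, 8.39, 9.15, 10.5, 11.8, 7.17, 7.88 and 7.36. In replicate 2 they were 5.51, 4.80, 7.38, 9.08, 8.70, 6.88, 8 and 6.58. Regions 4 and 5 were the 2 highest in both libraries, and replicate 1 was above replicate 2 at 7 of 8 regions. All 8 regions were in replicate 1's own thresholded list and 6 in replicate 2's.

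The longest chain joined Ddit4 and Dnajb12 and overlapped both. Ddit4 encodes a stress-induced inhibitor of the growth kinase complex mTORC1, and Dnajb12 a co-chaperone of the endoplasmic reticulum. The chain held 9 regions over 54.2 kb at chr10:59896759-59950949, with sums of 62.0 in the shared list, 66.2 in replicate 1 and 51.6 in replicate 2. Region 9, the last, had its summit in an exon 1011 bp from the Ddit4 TSS, just past the 1 kb limit. The length depends on that region. Region 7 was the highest in each library, at 11.8 in replicate 1 and 8.57 in replicate 2. The other 8 regions lay between 4.32 and 9.62 in replicate 1 and between 4.10 and 7.66 in replicate 2. Each library's own list held 8 of the 9 regions, lacking region 6 in replicate 1 and region 8 in replicate 2.

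Chains also lay wholly inside introns of signalling genes. Stk10, a kinase of the lymphocyte cytoskeleton, held a chain of 7 regions over 38.5 kb (chr11:32542538-32581013) with a sum of 56.2. Its signals in replicate 1 were 11.8, 5.53, 6.21, 4.91, 9.56, 6.76 and 14.9, and in replicate 2 6.45, 3.71, 8.28, 4.31, 8.29, 6.33 and 10.1. Region 7, whose window is printed above, was the highest in both, while region 3 was higher in replicate 2. Pik3ap1, an adaptor that links B cell and Toll-like receptors to phosphoinositide 3-kinase, held 7 regions over 44.0 kb (chr19:41310913-41354885) with sums of 55.7, 59.5 and 45.4 in the shared list and replicates 1 and 2. All 7 were in replicate 2's own list and 5 in replicate 1's. In all, 74 of 273 chains lay within 1 protein-coding gene, 111 overlapped none, and 31 had a promoter region within their span.

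The other chains named for high sums or length lay near genes of varied function. The chain near Usp6nl, which inactivates the endosomal GTPase RAB5, had 6 regions and a sum of 55.9, with 61.1 in replicate 1 and 41.9 in replicate 2. The chain near Tspan2, a tetraspanin, had 7 regions over 47.3 kb and a sum of 53.5. Gramd1a, a cholesterol transfer protein, had 7 regions over 46.8 kb and a sum of 52.0, with 1 promoter region inside the span. Lyst, the lysosomal trafficking regulator mutated in beige mice, lay 51.5 kb from the highest summit of a chain of 6 regions over 22.5 kb with a sum of 51.2. The chain near Eapp, an E2F-associated protein, reached 50.8 only through its 9 regions, whose signals lay between 3.38 and 7.80. Its shortest gap was 60 bp, and regions 3 and 4 had the same value of 7.66 in replicate 1. The 9 regions may therefore not all be separate elements. The chain near Ptp4a2, a phosphatase with a known role in stem cell renewal, had 6 regions and a sum of 49.3. The chain nearest to Arrdc3, an arrestin-domain protein of receptor trafficking, was among the 5 longest at 42.2 kb, and its 5 regions all lay between 8.08 and 11.3. Of the 10 chains of highest sum, 7 were also in the top 10 by replicate 1's sums and 9 by replicate 2's. By length 5 of them were in the top 10, and by mean signal per region 0 were, so the order by sum is not an order of region strength.

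**Figure D2:**
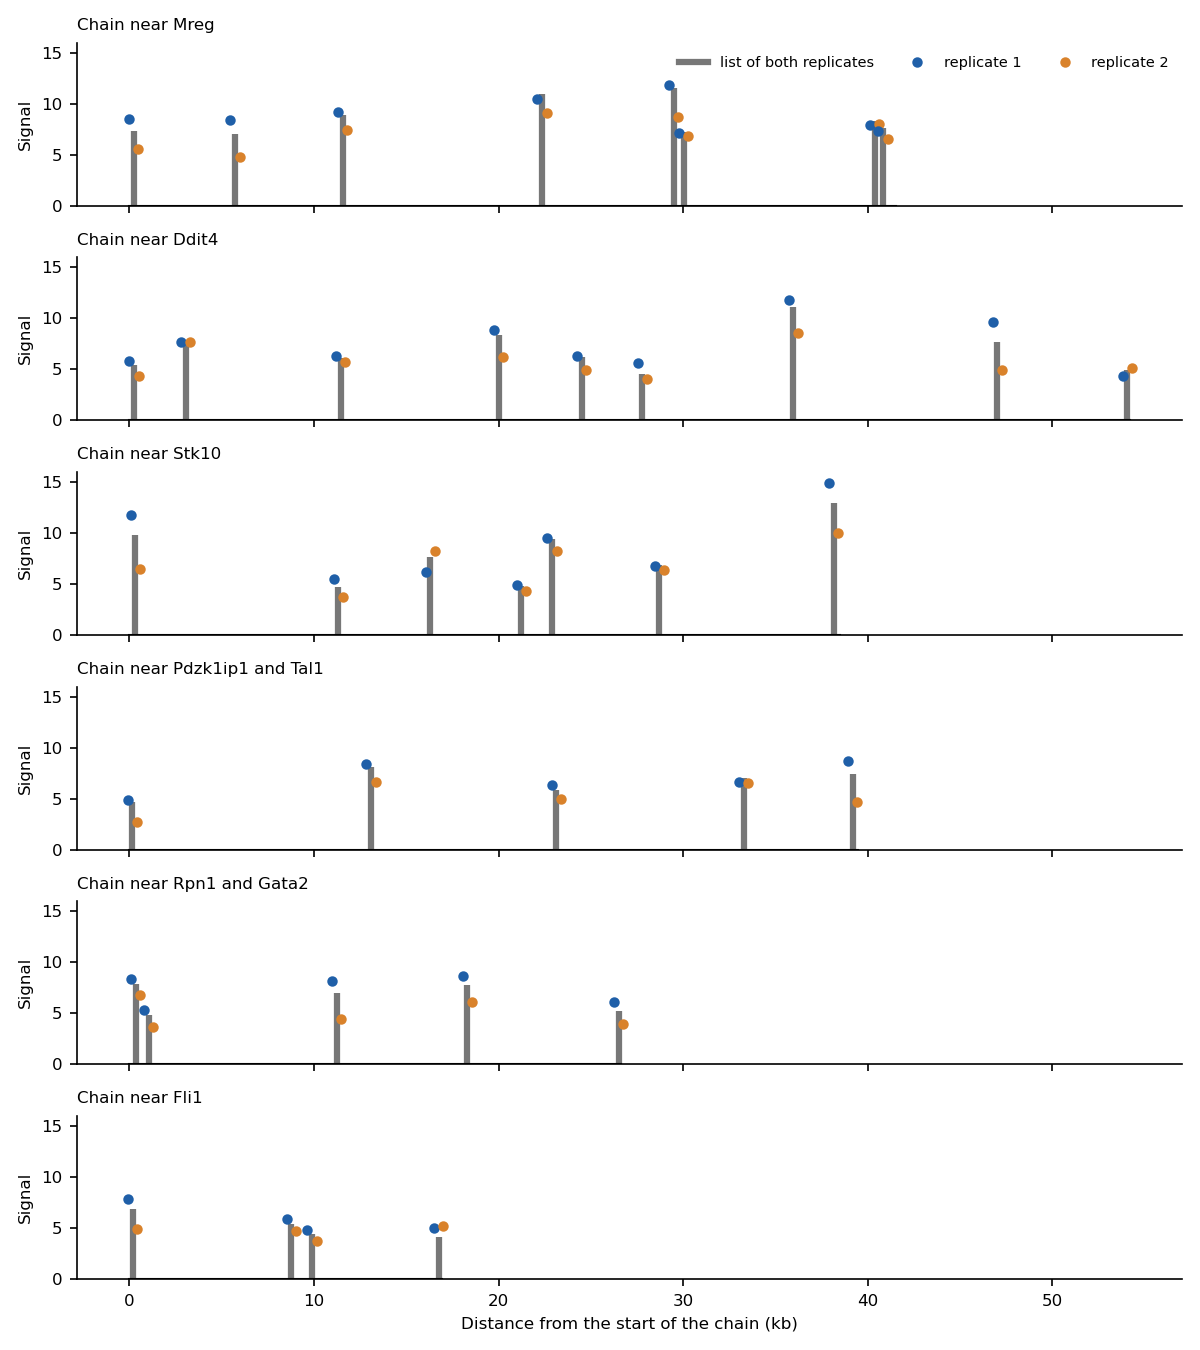
Signal (vertical axis, deposited unit) of every region by its summit's distance in kb from the start of the chain, for 6 chains, with grey bars for the shared list and points for replicate 1 (blue) and replicate 2 (orange). Replicate 1 lies above replicate 2 at most regions, and the Mreg, Ddit4 and Stk10 chains reach 11.5, 11.1 and 12.9 in the shared list, where no region of the Tal1, Gata2 and Fli1 chains exceeds 8.12.

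Chains came close to few of the transcription factor genes that maintain stem cells. Of 20 such genes, 2 had a TSS within 50 kb of a chain, Tal1 and Fli1, against 2.73% of all 21829 protein-coding genes (595), a background that makes fewer than 1 of 20. Within 100 kb there were 5, adding Gata2, Myb and Gfi1b. With counts this small the difference from the background was not read as a result. Bmi1, Erg, Etv6 and Gata2 were among the 18 with no chain within 50 kb. Erg, an ETS factor of stem cells, had 6 distal regions within 50 kb, of which the longest chain held 3. Runx1, required for stem cells to arise, had 6 in chains of at most 2, and Mecom, a regulator of stem cell quiescence, had 7 in chains of at most 2. Hoxa9 and Prdm16 had none.

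The chain next to Tal1, which encodes a basic helix-loop-helix factor required for all blood formation, ran from an intron past the 3′ end of that gene and across the neighbouring Pdzk1ip1, a small membrane protein gene. It held 5 regions over 39.5 kb at chr4:115062633-115102083, with 1 promoter region inside the span. Its summits lay 6.35, 19.3, 29.3, 39.5 and 45.4 kb downstream of the 5′-most Tal1 start. Enhancers active in stem cells and in erythroid cells are known downstream of Tal1, at about the distances of summits 2 and 4. The regions' signals were 4.90, 8.37, 6.38, 6.66 and 8.74 in replicate 1 and 2.74, 6.66, 4.99, 6.56 and 4.66 in replicate 2. The region at 19.3 kb was the highest of the 5 in replicate 2 and the second highest in replicate 1. All 5 were in replicate 1's own list, and regions 1 and 5 were missing from replicate 2's. The sums were 33.1 in the shared list, 35.0 and 25.6, which ranked the chain 105 of 273.

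The chain nearest to Gata2, a zinc finger factor of stem cell maintenance, lay 61.4 kb from that gene and was assigned to Rpn1, an oligosaccharyltransferase subunit, whose TSS is closer. Its 5 summits lay 87.7, 87.0, 76.8, 69.8 and 61.6 kb upstream of the 5′-most Gata2 start. A distal enhancer of Gata2 is well known in blood progenitors at about the distance of region 3, and region 3, of 1249 bp, was the widest of the chain. Signals were 8.36, 5.31, 8.19, 8.63 and 6.16 in replicate 1 and 6.85, 3.69, 4.41, 6.09 and 3.99 in replicate 2. Regions 1, 3 and 4 were thus the 3 highest in both libraries. Replicate 1's own list held 4 of the 5 regions and replicate 2's held 3.

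The Fli1 chain was one of the weakest. Fli1 encodes an ETS factor of stem cells and megakaryocytes, and its chain held 4 intronic regions over 17.0 kb (chr9:32500092-32517042), 26.0 to 42.6 kb downstream of the 5′-most start. The signals were 7.86, 5.86, 4.81 and 4.97 in replicate 1 and 4.95, 4.72, 3.72 and 5.17 in replicate 2. Region 1 was the highest in replicate 1 and region 4 in replicate 2, so the libraries gave no common order. The sum of 20.8 ranked 262 of 273. ETS matches stood in 3 of these 4 windows of summit ±100 bp, with the PU.1-type form in 2.

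The chains within 100 kb of Myb and Gfi1b lay in or beside other genes. The chain within and beyond Ahi1, a ciliary protein gene, lay 76.8 kb from Myb, which drives progenitor proliferation. Its 4 regions had signals of 10.2, 6.83, 8.37 and 8.75 in replicate 1 and 7.06, 4.60, 6.64 and 6.73 in replicate 2, in the same order. The first of them held 2 GATA, 1 RUNX and 1 PU.1-type match. The chain inside Ralgds, an exchange factor for RAL GTPases, lay 95.1 kb from Gfi1b, a repressor of the erythroid and megakaryocytic lineages, and its sum was 23.2, with 26.6 in replicate 1 and 20.4 in replicate 2.

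Genes of acute stress responses lay within 50 kb of a chain in 4 of 14 cases (28.6%), against 2.73% of all protein-coding genes. Junb, an AP-1 subunit that limits stem cell expansion, had its TSS inside a chain of 4 regions with signals of 3.65, 4.15, 6.24 and 16.4 in replicate 1 and 4.38, 3.22, 4.02 and 11.2 in replicate 2. The highest region, nearest to Hook2, carried 52.5% of the sum in the shared list. Junb also had a region at its promoter, and the summits of regions 1 and 2 lay 2034 and 1283 bp from its TSS. Atf3, a stress-induced factor, lay 31.9 kb from 5 intergenic regions that had between 8.56 and 10.9 in replicate 1 and between 4.78 and 7.37 in replicate 2. Fosb, another AP-1 subunit, lay 6.22 kb from a chain of 5 whose nearest gene was Ercc1, and Nr4a1, an orphan nuclear receptor of stem cell quiescence, lay 49.0 kb from a chain with a sum of 23.9. Dusp1, Egr1, Egr2 and Fos had no chain within 50 kb. Every gene of this list had a region at its promoter, and 3.40% of all genes with one lay within 50 kb of a chain. Only Atf3 was the nearest gene of its chain. The list was chosen with earlier results of these data known, and a count this small was not read as a result. No test of the list was made.

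Surface, cytokine receptor and cell cycle genes gave 1 or 2 cases each, beside the same share of 2.73% of all protein-coding genes, and counts this small were not read as results. Of 20 stem cell surface genes only Cd27, a tumour necrosis factor receptor family member, lay near a chain, 4.56 kb from its edge. That chain of 5 regions had sums of 43.8 in replicate 1 and 28.0 in replicate 2. Its nearest gene was Tuba3a, with 8 genes within 50 kb. Cd34, Cd48, Cd93 and Ctnnal1 had none, and Flt3 had 5 distal regions within 50 kb in chains of at most 2. Among 14 cytokine receptor and signalling genes, Ifnar1, a subunit of the type I interferon receptor, lay 26.9 kb from a chain of 4 regions. Region 1 was nearest to Ifnar1 and regions 2 to 4 to Ifngr2. Their signals were 14.4, 8.52, 8.87 and 6.48 in replicate 1 and 5.15, 4.88, 7.14 and 6.87 in replicate 2. The highest region in replicate 1 was the second lowest in replicate 2. Il6st, the shared signalling receptor gp130, had 4 regions with sums of 31.6 and 26.2, while Csf1r, Csf2rb, Csf3r and Ifngr1 had no chain. Of 14 cell cycle genes, Ccnd3, encoding cyclin D3, held an intronic chain of 4 with 7.57, 9.89, 10.3 and 4.94 in replicate 1 and 6.55, 7.38, 8.04 and 4.06 in replicate 2, in the same order. Ccne1, encoding cyclin E1, lay 20.7 kb from another, and Ccna2, Ccnb1, Ccnd1 and Ccnd2 had none within 50 kb. None of 10 niche and adhesion genes had one, among them Cd44, Cd47, Cd81 and Cd9.

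Markers of mature and other cell types lay near chains about as often as all genes. Over the 11 lists together 3 of 130 genes (2.31%) had a chain within 50 kb, against 2.73% of all protein-coding genes, which is no result about these markers. The count was 0 of 12 for erythroid genes (Alas2, Ank1, Epor and Ermap among them), 0 of 14 for megakaryocyte genes (Clec1b, F2rl2, Gp1ba, Gp6), 0 of 16 for granulocyte and monocyte genes (Camp, Cd14, Cebpa, Cebpe) and 0 of 9 for mast cell and basophil genes (Cma1, Cpa3, Epx, Fcer1a). T cell genes gave 0 of 16 (Bcl11b, Cd247, Cd28, Cd3d). B cell genes gave 2 of 14, Cd79a and the adaptor Blnk, and not Blk, Cd22 or Cd72. The Blnk chain lay nearest to Dntt, the DNA polymerase of lymphoid progenitors, and its first region, at 10.3 in replicate 1, was absent from replicate 2's lists. Natural killer genes gave 1 of 11, Klrb1c, with 2 chains, in a cluster of similar genes where the assignment to 1 gene is uncertain, and not Cd244a, Eomes, Gzma or Gzmb. Endothelial (0 of 10: Cdh5, Emcn, Ets1, Flt1), hepatocyte (0 of 10: Alb, Apoa1, Apob, Cps1), neural (0 of 10: Dcx, Gad1, Gad2, Gfap) and striated muscle genes (0 of 8: Acta1, Actn2, Ckm, Des) had none. Of 14 housekeeping genes 1 did, Actb, whose chain of 5 held a region at 14.2 in replicate 1 and 12.7 in replicate 2 beside 4 between 5.54 and 8.17 and between 4.62 and 5.53, and B2m, Eef2, Gapdh and Gusb had none.

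The genes nearest to the chains often had an open promoter. The 273 chains had 266 distinct nearest protein-coding genes, and 179 of these (67.3%) had a region at their promoter, against 51.5% of all protein-coding genes. The background was not matched for open regions nearby, and the difference was not tested. Within 50 kb of a chain lay 382 genes with a promoter region, 3.40% of all such genes. Every member of a chain had the same nearest gene in 176 chains, 40 chains had no protein-coding TSS within 50 kb, and 13 lay over 100 kb from one.

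Single members were weaker than isolated distal regions and of similar width. The median signal fell with the size of the chain, from 8.28 in isolated regions through 7.66 in pairs and 7.18 in chains of 3 to 7.0 in members, whose quartiles were 5.73 and 8.65. Widths were alike, with medians of 513 bp in isolated regions and 512 bp in members. Members lay in intergenic sequence in 57.6% of cases and in introns in 36.5%, against 50.1% and 44.1% of isolated regions. Median GC content of the windows of summit ±100 bp was 52.7% in members and 51.2% in isolated regions, and promoter regions had 64.2%. A median of 6 TSSs lay within 100 kb of a member and 4 of an isolated region. Chain sizes and signals come from the same list, so these differences are descriptions.

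Members as a class had lower signal than all distal regions but not lower presence in the replicates. Of the members, 984 of 1218 (80.8%, with a 95% Wilson interval of 78.5 to 82.9) were also in replicate 1's own thresholded list, against 79.6% of all distal regions. In replicate 2's shorter list it was 708 (58.1%, 55.3 to 60.9) against 55.8%. The intervals cover counting error only, and neighbours in a chain are not independent. Both lists held 638 members, or 52.4%, and neither held 164, or 13.5%, against 50.2% and 14.8% of all distal regions. In the more permissive pseudoreplicated lists the shares were 99.7% and 97.6%, equal to the backgrounds of 99.7% and 97.6% to 3 digits.

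**Figure D3:**
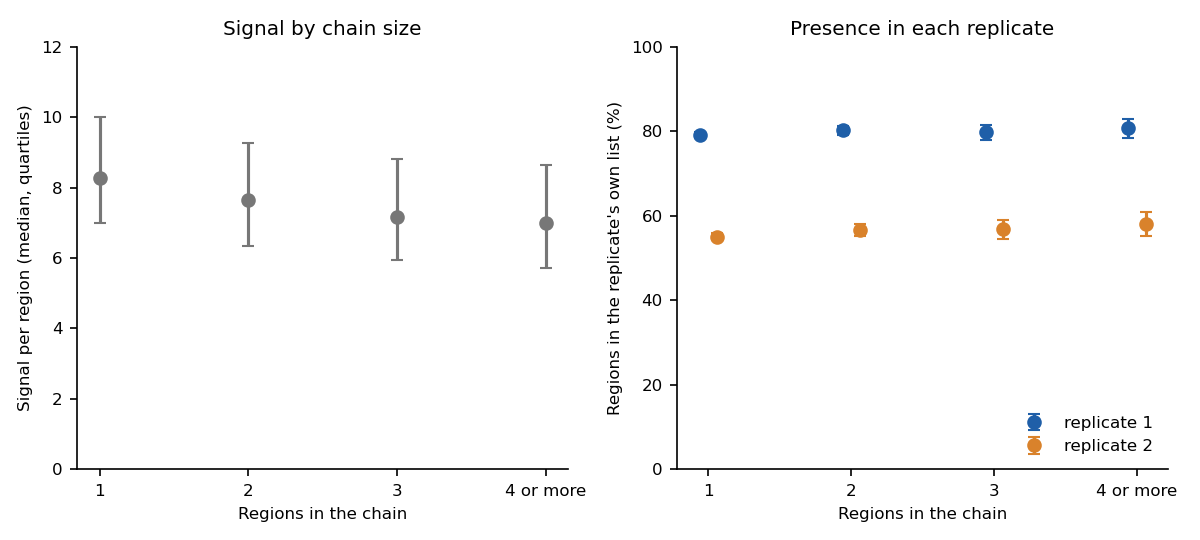
Left, median signal per region (points) with quartiles (bars) by the number of regions in the chain. Right, the share of regions found in each replicate's own thresholded list, with 95% Wilson intervals. Signal falls from 8.28 to 7.0 from isolated regions to members, while the shares stay between 79.3% and 80.8% in replicate 1 and between 55.1% and 58.1% in replicate 2.

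At matched signal, members were found more often than isolated regions. With signal from 6 to 8, replicate 1's list held 80.5% of 456 members and 63.6% of 4448 isolated regions, and replicate 2's held 53.5% and 32.5%. From 8 to 10 the shares were 95.2% and 89.5% in replicate 1 and 82.3% and 62.5% in replicate 2. At 10 and over they were close, at 99.3% and 98.6%, and 92.5% and 90.0%. Below 6, which held 366 members and 1077 isolated regions, they were 63.9% and 53.1%, and 33.6% and 22.4%. Members were also the wider regions in each bin. Median widths were 450.5 and 437 bp below 6, 485.5 and 459 bp from 6 to 8, 579 and 510 bp from 8 to 10, and 612 and 609 bp above. Members also lie close to one another, so a wide region of a replicate's list can overlap several of them, while isolated regions have no near neighbour. With an overlap of at least 50% of the member, 79.1% and 55.4% of all members were found in replicates 1 and 2. For isolated regions that share is not given here. The part of width and of such overlaps in these shares was not tested. The bins were chosen after the values were seen, and the differences were not tested.

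Within a chain the regions were unequal. The highest signal was a median of 1.75 times the lowest, with a range of 1.15 to 4.59, and the highest member carried a median of 30.4% of the sum. The highest member of each chain had a median signal of 9.38 and was in replicate 1's list in 95.6% of chains and in replicate 2's in 82.1%. The lowest had a median of 5.30 and shares of 61.5% and 29.3%. Of all distal regions, 79.6% and 55.8% were in these lists. Members were ranked by signal from the same 2 libraries, so the direction of this difference was set by the ranking and is no result. The highest member stood at an end of the chain in 152 of 273 chains (55.7%), while ends made up 44.8% of members. Where all members were in both pseudoreplicated lists, the same member was the highest in both replicates in 148 of 243 chains.

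Whole chains were recovered in a single replicate to an extent that depended on the list, and a chain needs several regions at once, so its share is lower than that of single members by construction. In the thresholded lists every member was present in 108 chains in replicate 1 and in 23 in replicate 2. In the pseudoreplicated lists this held for 269 and 246 chains. Built from each replicate's thresholded list alone, there were 414 chains in replicate 1 and 72 in replicate 2, and these overlapped 160 and 55 of the 273. Built from the pseudoreplicated lists there were 3844 and 1678, and they overlapped 273 and 263. Every chain had a member in replicate 1's thresholded list, and 10 had none in replicate 2's. Signal in the pseudoreplicated lists was higher in replicate 1 at 1096 of 1185 members present in both, by a median ratio of 1.37, and that ratio was 1.43 over 19781 distal regions. The scale of the signal is not stated, so a ratio between libraries is not a difference in openness. Summed signals of the 2 replicates followed each other with a Spearman coefficient of 0.723 over 273 chains, which share members' number and length, and 0.672 over 1185 members, where all distal regions had 0.632.

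**Figure D4:**
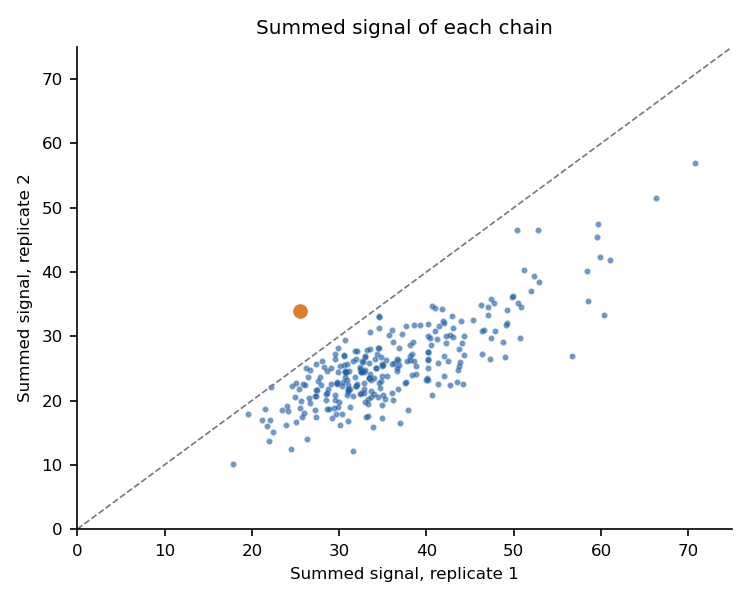
Summed signal of each chain in replicate 1 (horizontal) and replicate 2 (vertical), over the members in each replicate's pseudoreplicated list, with a dashed line of equality and the chain that matches mitochondrial DNA in orange. All chains but that one lie below the line, 272 of 273, and 29 members missing from replicate 2's list and 4 from replicate 1's add nothing to a sum. Over members in both lists, 271 chains had the higher sum in replicate 1.

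The sequence windows of the members resembled those of other distal regions in most motifs. Matches were counted on both strands within 100 bp on each side of a summit. GGAAGT, the ETS core, was in 35.9% of members and 35.1% of all distal regions, and its longer PU.1 form GAGGAAGT, which contains it, in 11.0% and 10.4%. AGATAA or TGATAA, for GATA factors, was in 15.3% and 14.6%. TGTGGT, for RUNX, was in 28.5% and 30.4%. The TAL1-type E-box CAGCTG was in 17.3% and 18%, TGACAG for MEIS in 19.2% and 18%, and CAACTG for MYB in 11.5% and 11.4%. TGANTCA for AP-1 was in 10.8% and 10%, TTGCNNAA for C/EBP in 8.95% and 9.15%, and CCAAT for NF-Y in 20.3% and 20.3%. In each of these the background lay inside the 95% Wilson interval of the members.

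For the other 4 motifs the background lay outside that interval, for interferon regulatory factors by a small margin. GGGCGG, for KLF and SP factors, was in 15.0% of members (13.1 to 17.1) and 11.5% of all distal regions, where isolated regions had 10.9% and promoter regions 59.4%. In windows centred 500 bp from the summits its shares were 5.5% of members and 4.19% of all distal regions. Members thus lay above the background away from the summits too. Within 50 bp on each side of a summit the shares were 8.78% and 7.3%. The CTCF motif, long and named without letters here, was in 7.88% (6.50 to 9.53) and 10%. Its share was 10.6% in isolated regions, 9.55% in pairs, 9.05% in chains of 3 and 2.44% in promoter regions. GAAANNGAA, for interferon regulatory factors, was in 6.16% (4.94 to 7.65) and 7.66%, and TTCNNNGAA, for STAT factors, in 3.86% (2.91 to 5.09) and 5.33%. CTCF organises chromatin loops, and the 96 members with its motif lay in 82 chains. These shares were not tested, and the 14 motifs overlap in part.

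**Figure D5:**
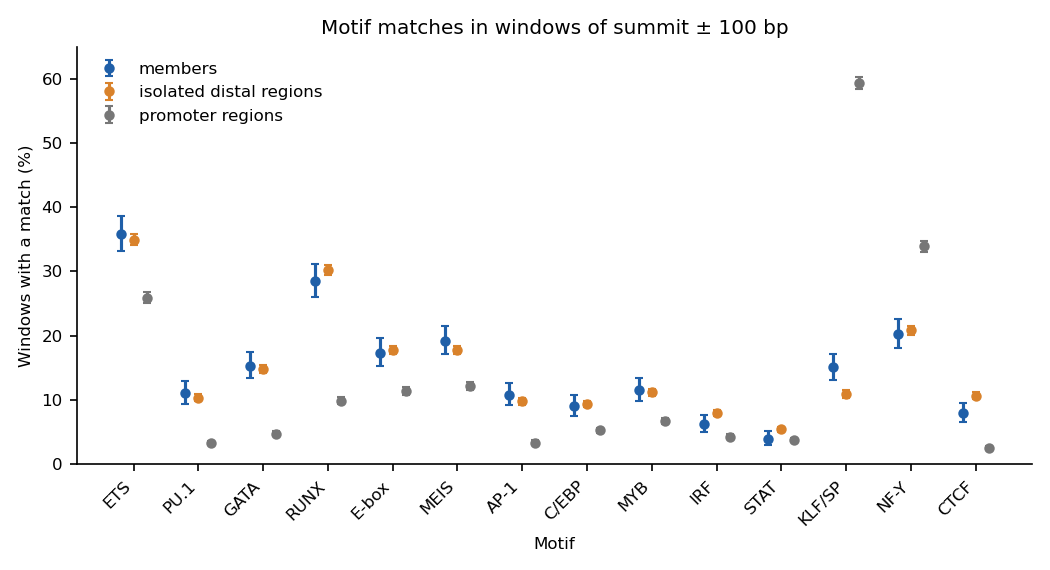
Share of windows of summit ±100 bp with at least 1 match to each of 14 motifs, with 95% Wilson intervals, in members (blue), isolated distal regions (orange) and promoter regions (grey). Members lie beside isolated regions at most motifs, above them for KLF/SP (15.0% against 10.9%) and below for CTCF (7.88% against 10.6%).

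Windows with KLF or SP matches were more frequent beside other kinds of transcription start. Of the members, 160 (13.1%) lay within 1 kb of a start of a noncoding or other transcript type, against 9.84% of isolated regions. KLF/SP matches were in 23.1% of these 160 and in 13.8% of the other 1058 members. Isolated regions gave 22.8% and 9.57%, so the other members were above isolated regions too. Their part in the difference was not otherwise tested.

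Matches to a motif seldom stood in every member of a chain. ETS matches stood in at least 1 member of 227 chains and in every member of 3, RUNX matches in 209 and 2, and GATA matches in 133 and 0. PU.1-type matches stood in 109 chains. With 4 or more members in a chain, a share of 35.9% per window by itself makes at least 1 ETS match common and a full set rare. The counts were not compared with other groups of regions, so they were not read as results about chains. In windows centred 500 bp from the summits, 13.5% of the members held an ETS match and 17.7% a RUNX match, below the 35.9% and 28.5% at the summits, while the GATA share was 14.2% there and 15.3% at the summit. Over all distal regions the ETS, RUNX and GATA shares in those windows were 12.2%, 15.3% and 18%. For GATA that was above the 14.6% at the summits of all distal regions, unlike in members. These differences were not tested.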

How the data were processed

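Chromatin accessibility lists of 2 libraries were used as deposited, on mm10 per the labels. The aligner, the peak caller and the treatment of the transposase offset were not given in the sources used here. A peak's signal is a deposited value whose scaling is not stated. The deposited IDR score ranks peaks by reproducibility and was used only for a stricter limit of 830. The shared list was the conservative IDR thresholded list made from both replicates. Each replicate's own lists were its IDR thresholded and its more permissive pseudoreplicated list.

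Overlapping peaks were merged, each region took its highest peak's summit and signal, and distal regions were chained as described above, with protein-coding starts of GENCODE M21 on 21 chromosomes of GRCm38.p6. A member was found in a replicate when it overlapped a region of that list by at least 1 base. The nearest gene of a chain is the protein-coding TSS nearest to its highest summit. Shares are given with 95% Wilson intervals for counting error. Motif matches were counted within 100 bp on each side of a summit. Members were compared with mitochondrial DNA using blastn 2.17.0 at an e-value of 1e-05. Python 3.11.15, numpy 2.4.6, scipy 1.17.1, pysam 0.24.0 and matplotlib 3.10.9 were used. The chaining was tested on simulated data.

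The members and the 18 gene lists (236 entries) were chosen with earlier results of these data known. Chains were named by rule as the 10 of highest summed signal, the 5 longest, the 5 of most regions and those with a stem cell gene nearest, and per list up to 4 genes with a chain within 50 kb and up to 4, in alphabetical order, without. Others were named after their values were seen. One of the genes that fall under this rule is not reported here. With 1 group and members chosen from the readout, no test was made. Alternatives were other stitching distances, chain sizes, distal limits, TSS sets, peak lists, overlaps, windows and each replicate alone.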

Additional observations from a re-analysis of the deposited data

How the results depend on the processing

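The number of chains, of members and of the 20 stem cell factor genes within 50 kb depended strongly on the rule, from main values of 273, 1218 and 2. Stitching at 5 kb gave 31 chains, 129 members, a median length of 9.81 kb and 0 stem cell factor genes, with 86.8% of members in replicate 1's list. Stitching at 25 kb gave 811, 4020, 41.9 kb and 4. Chains of 3 or more gave 892, 3075, 15.1 kb and 5, and chains of 6 or more gave 27, 178, 32.1 kb and 0, with 65.2% in replicate 2's list. An IDR score of at least 830 left 14 chains, 60 members, a median of 23.7 kb and 0 genes, with 98.3% and 95% of members in replicates 1 and 2. The longer lists gave 799 chains, 3872 members and 4 genes (IDR thresholded), 3477, 19230 and 16 (replicated), and 4605, 27237 and 18 (pseudoreplicated list of both). With starts of every gene type, and with chains ended at promoter regions, 1 stem cell factor gene was left in each case. A window of 100 kb gave 5 and the nearest gene alone gave 1. Leaving out 1 replicate gave from 72 to 414 chains, from 323 to 1906 members, medians of 22.2 to 22.9 kb and 0 to 2 genes, with replicate 1 left out at the lower end. Counted in the pseudoreplicated lists, members were found in 99.7% and 97.6%. The cause of these shifts was not tested beyond the change each setting makes by construction. No paired analysis was possible because there is 1 group. Leaving out the chain that matches mitochondrial DNA, an alternative added after the data were seen, moved none of these values past its limit. With 2 libraries of unknown depth, a region missing from a list may be open below its threshold.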

Other observations

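Chains overlapped miRNA genes in 11 of 273 cases and noncoding genes in 84, and a few of these miRNAs are known regulators of blood cells. The overlap was not counted for other intervals of like length, so these counts were not read as results about chains. The miRNAs below were named after their values were seen. Mir155, a regulator of lymphoid and myeloid responses, and its host Mir155hg lay in a chain of 4 intergenic regions with 7.34, 7.30, 6.83 and 8.85 in replicate 1 and 3.88, 4.19, 4.17 and 5.61 in replicate 2. Replicate 2's own list held 1 of these 4. Mir21a, a widely expressed miRNA, lay in a chain of 4 with 5.38, 5.92, 8.90 and 8.45 in replicate 1 and 3.45, 3.62, 5.32 and 8.75 in replicate 2, where the 2 later regions were the higher ones in both. Mir132 and Mir212, a pair that shares a precursor and is known in stem cell ageing, lay in a chain of 6 near Hic1 with a sum of 42.2 in replicate 1 and 30.0 in replicate 2.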
